A study of Sus scrofa with 20 samples.

Results

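The imprinted growth and development genes PEG3, PEG10, MEST, DLK1, PLAGL1, NNAT, SGCE, DIRAS3, GRB10 and CDKN1C were examined by RNA-seq in backfat and liver of Nanchukmacdon pigs. These 10 genes were listed by symbol and matched to pig Ensembl identifiers by name. An identifier was found for 9 of the 10 genes and all 9 passed the filter on low counts, out of 16275 genes tested among the 31907 genes counted. NNAT, which encodes neuronatin, had no identifier in the table of names used here, so no value is given for it. The samples were 5 RNA-seq libraries of backfat and 5 of liver from 5 boars, labelled as normal, wild type (WT) and 22 months old, while the study's methods give another average age. Backfat is the layer of fat under the skin of the back, and Nanchukmacdon is a Korean breed derived from the Jeju native black pig. No animal was treated, no gene was altered, and each library came from a piece of bulk tissue. Libraries are named by tissue and by the boar number that the column names carry (65, 67, 69, 71 and 72). The other 10 samples of the series were bisulfite libraries of the same 2 tissues, whose processed values carry no genomic position, so methylation at the imprinted genes was not analysed here.

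Genomic imprinting is a form of gene control in which 1 parental copy of a gene is silenced by marks, among them DNA methylation, that are set in the germ line. In mammals, PEG3, PEG10, MEST, DLK1, PLAGL1, NNAT, SGCE and DIRAS3 are known to be expressed mainly from the paternal copy, and CDKN1C from the maternal copy. GRB10 is known to be expressed from the maternal copy in most tissues of mice outside the brain. Many imprinted genes act on fetal and placental growth and are lowered after birth, and several of them (DLK1, MEST, PEG3 and GRB10) are known for their part in adipose tissue. The counts do not separate the parental copies, so each value is the sum of both.

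Of the 10 genes, only SGCE and PEG10 are next to each other in the genome. In the RefSeq annotation of Sscrofa11.1, SGCE occupies chr9:74402714-74473904 on the minus strand and PEG10 occupies chr9:74474121-74486983 on the plus strand, so the genes point away from each other. The 216 bases between them, at chr9:74473905-74474120, are shown because they hold the upstream sequence of both genes. They are written 5′ to 3′ on the plus strand with each CG dinucleotide, the site of DNA methylation in mammals, in capitals.
Between SGCE and PEG10: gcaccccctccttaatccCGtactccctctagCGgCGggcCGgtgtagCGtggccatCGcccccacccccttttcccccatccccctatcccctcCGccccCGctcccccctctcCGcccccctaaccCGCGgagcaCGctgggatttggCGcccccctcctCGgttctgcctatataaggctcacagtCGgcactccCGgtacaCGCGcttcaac
The stretch holds 18 CG dinucleotides, which is 8.33 per 100 bases, and 68.5% of its bases are G or C.

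The 250 bases before the annotated start were read in the same way for all 10 genes and for 19556 genes in all, in which the median number of CG dinucleotides was 12 and the median GC content 57.6%. At or above that median were 6 of the 10 genes: PEG3 with 15 CG, PEG10 with 18, SGCE with 21, CDKN1C with 38, DLK1 with 44 and GRB10 with 45. The windows of PEG10 and SGCE share the 216 bases printed above, so their counts are not independent. Among those below the median were NNAT with 11, DIRAS3 with 8 and MEST with 2. Each window lies before the outermost annotated start of its gene. Starts of other transcripts were not read, and MEST has 8 RefSeq transcripts. The window of GRB10 is printed because it is the richest of the set. The GRB10 window (chr9:136742553-136742802, minus strand) had more CG than 98.5% of the windows and 82.4% GC.
GRB10: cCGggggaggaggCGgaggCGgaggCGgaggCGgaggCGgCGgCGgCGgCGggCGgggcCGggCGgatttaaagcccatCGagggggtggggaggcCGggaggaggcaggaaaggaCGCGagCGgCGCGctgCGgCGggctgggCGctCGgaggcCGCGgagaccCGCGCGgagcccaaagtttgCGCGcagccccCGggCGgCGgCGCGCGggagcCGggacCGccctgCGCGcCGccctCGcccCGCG
The counts of CG describe these windows only and say nothing of whether the sites were methylated.

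The libraries held between 43820042 and 61772737 counted read pairs. Trimmed mean of M-values (TMM) factors, which correct library sizes for differences in composition, were 1.182 to 1.436 in backfat and 0.6485 to 0.9156 in liver. The tissue labels were checked with marker genes summed in CPM, counts scaled to the total of the library. The 8 adipocyte markers reached 12090 to 19840 in backfat and 91.1 to 299 in liver, and all 8 were higher in backfat. The 8 hepatocyte markers reached 20120 to 83250 in liver and 214.5 to 720.5 in backfat, and all 8 were higher in liver. Liver 67 stood apart: it had the lowest hepatocyte sum (20120), the highest red cell sum (1273, against 62.5 to 283 in the other liver libraries), a skeletal muscle sum of 131.6 (against 0.471 to 1.48), and 44.5% of its counts in the 13 mitochondrial genes (6.38% to 20.2% in the other 9 libraries). Backfat 69 had the highest hepatocyte sum (720.5, against at most 310.9) in backfat. Its sum of stromal progenitor markers was the lowest (18850, against up to 39080), of which 15980 was COL1A1, while PDGFRA, CD34 and PI16 of the same list were highest in this library. For the imprinted genes, results that rest on these 2 libraries are given with and without them.

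The comparison of backfat with liver asks which of the genes differ between 2 tissues of the same animals. The study's thresholds were used, so that a gene was called when its adjusted p did not exceed 0.05 and it differed by 4-fold or more, a log2 fold change of 2. At these thresholds 2 of the 9 genes, PLAGL1 and SGCE, were higher in backfat and none was higher in liver by edgeR's quasi-likelihood test. The background was 11.1% of all tested genes called higher in backfat and 11.2% called higher in liver. DESeq2 and limma-voom called the same numbers of the 9 genes, 2 and 0, and 1 gene was higher in liver at an unadjusted p below 0.05. By the adjusted p alone, 6 genes were higher in backfat (PLAGL1, SGCE, PEG10, CDKN1C, MEST and GRB10; background 28.0%) and 1 was higher in liver (DIRAS3; background 27.0%). PEG3 and DLK1 did not pass. Every backfat library lay above every liver library for 5 genes (PLAGL1, SGCE, PEG10, CDKN1C and MEST; background 22.9%), and the opposite held for 0 genes (background 19.7%). The median log2 fold change of the 9 genes was 1.53, where positive is higher in backfat, against 0.0001 for all tested genes. Scaling by library size alone shifted the median of all genes by 0.71 towards backfat, and 5 of the 9 genes were then called higher in backfat and 0 in liver. In bulk tissue, fewer cells of a type and less RNA per cell cannot be told apart.

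**Figure D1:**
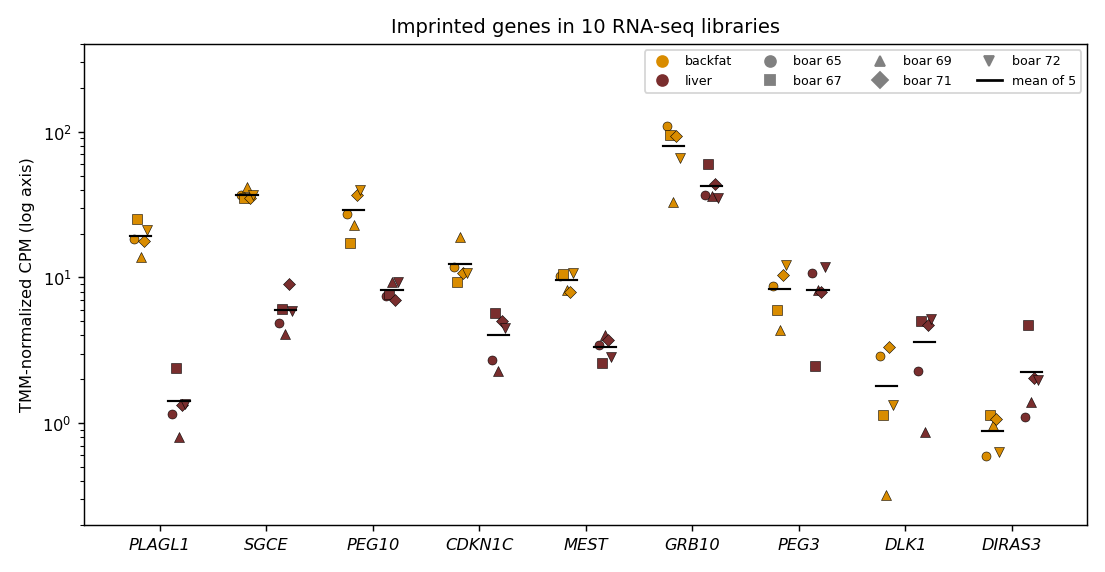
Level of each imprinted gene in each of the 10 RNA-seq libraries, in TMM-normalized CPM on a log axis. Points are libraries (colour for tissue, shape for boar) and bars are means of 5 libraries. The ranges of backfat and liver are separate for PLAGL1, SGCE, PEG10, CDKN1C and MEST, and they overlap for GRB10, PEG3, DLK1 and DIRAS3.

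PLAGL1 (ENSSSCG00000004127, chr1:21299830-21371070, plus strand) encodes a zinc finger transcription factor that restrains cell division. Its level was 18.32, 25.19, 13.89, 17.75 and 21.17 TMM-normalized CPM in backfat 65, 67, 69, 71 and 72, and 1.147, 2.403, 0.8069, 1.327 and 1.356 in liver of the same boars. The lowest backfat library was several-fold above the highest liver library, and liver 67 was the highest of the liver libraries. The means were 19.3 ± 4.21 in backfat and 1.41 ± 0.598 in liver (SD, n = 5 each). The log2 fold change was 3.78 ± 0.30 (SE; edgeR adjusted p = 4.90e-07), the largest of the set, and the ratio of backfat to liver within a boar lay between 3.39 and 4.11 on the log2 scale. Without backfat 69 and liver 67 it was 4.16.

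PLAG1, the related zinc finger activator from which the family takes its name, was at 1.42 ± 0.567 TMM-normalized CPM in backfat and 0.511 ± 0.0746 in liver, a log2 fold change of 1.48 (edgeR adjusted p = 0.00394). PLAGL2, the other relative, was at 5.86 ± 0.849 and 5.45 ± 0.641, with an adjusted p of 0.668. The balance of the pair was read from counts per kilobase of exon within each library. The ratio of PLAGL1 to PLAG1 was 7.31 to 25.4 in backfat (median 10.5) and 1.36 to 4.07 in liver (median 1.96), so the ranges were separate. The log2 difference was 2.46 (exact two-sided permutation over libraries, p = 0.00794, adjusted p = 0.0159 over 4 ratios), where 0.00794 is the smallest p that 5 against 5 libraries allow. That permutation ignores the pairing by boar. Paired by boar, the ratio was higher in backfat in 5 of 5 boars, with a sign-flip permutation p of 0.0625, the smallest that 5 boars allow. These 4 ratios of gene pairs were chosen after the counts were seen, and the adjustment over 4 ratios does not account for that choice.

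SGCE (ENSSSCG00000015328) encodes epsilon-sarcoglycan, a membrane protein of the complex that links the cytoskeleton to the matrix outside the cell. Backfat 65, 67, 69, 71 and 72 had 36.93, 34.81, 41.60, 34.87 and 36.51 TMM-normalized CPM, and the liver libraries had 4.888, 6.048, 4.077, 9.004 and 5.913. The backfat libraries lay close together, with a coefficient of variation of 7.496%, against 31.2% in liver and a median over all tested genes of 23.2% in backfat and 33.0% in liver. The means were 36.9 ± 2.77 and 5.99 ± 1.87 (SD, n = 5 each), and the log2 fold change was 2.63 ± 0.21 (SE; edgeR adjusted p = 5.06e-07).

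PEG10 (ENSSSCG00000036049), which starts at the far end of the printed stretch from SGCE, is a gene derived from a retrotransposon and is needed for the placenta. Its levels were 27.32, 17.32, 22.71, 37.04 and 39.94 TMM-normalized CPM in backfat, and 7.431, 7.668, 9.364, 7.046 and 9.358 in liver, in the same order of boars. The lowest backfat library was above the highest liver library. With means of 28.9 ± 9.53 and 8.17 ± 1.11 (SD, n = 5 each), the log2 fold change was 1.82 ± 0.23 (SE; edgeR adjusted p = 2.95e-05), below the fold threshold. The spread was reversed from that of SGCE, with a coefficient of variation of 33.0% in backfat and 13.5% in liver.

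The balance within the pair of SGCE and PEG10 was read in the same way as that of PLAGL1 and PLAG1. Per kilobase of exon, the ratio of SGCE to PEG10 was 2.588, 3.849, 3.507, 1.803 and 1.75 in backfat and 1.259, 1.51, 0.8335, 2.447 and 1.21 in liver. Liver 71, with 2.447, lay above 2 of the backfat libraries, so the ranges overlapped. The log2 difference was 0.91 (exact two-sided permutation, p = 0.0317, adjusted p = 0.0423), with a higher ratio in backfat in 4 of 5 boars. The call was not stable: leaving out any 1 of 7 libraries (backfat 65, 67 or 69, or liver 65, 67, 69 or 72) gave an adjusted p of 0.0635 to 0.0847. Paired by boar, a sign-flip permutation test gave p = 0.125, where 0.0625 is the smallest that 5 boars allow.

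**Figure D2:**
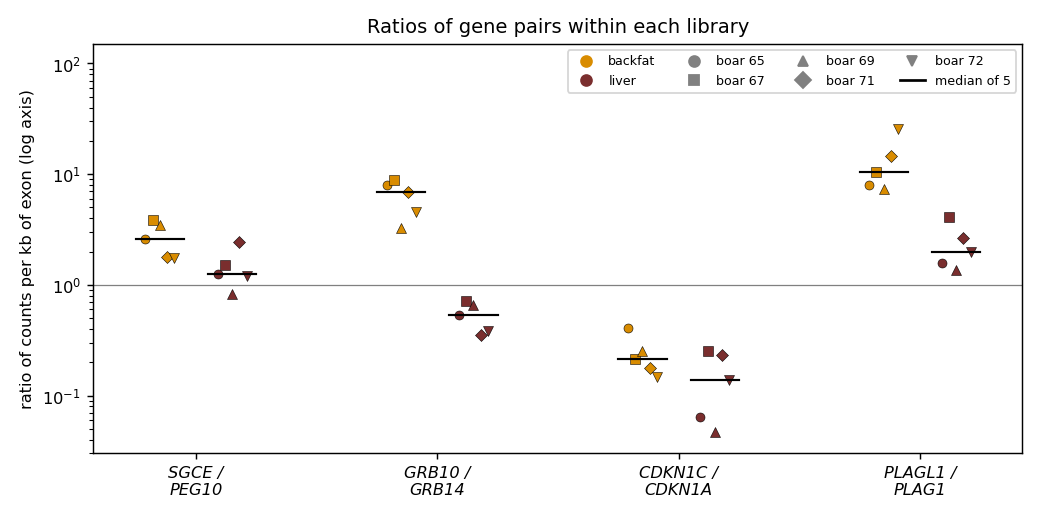
Ratio of 4 gene pairs within each library, from counts per kilobase of exon on a log axis, with the grey line at a ratio of 1. Points are libraries (colour for tissue, shape for boar) and bars are medians of 5. The tissues are separate for GRB10 to GRB14 and for PLAGL1 to PLAG1, and they overlap for SGCE to PEG10 and for CDKN1C to CDKN1A.

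CDKN1C (ENSSSCG00000040461, chr2:2019391-2022092, minus strand) encodes p57, an inhibitor of the cyclin-dependent kinases that drive cells into S phase. It was at 11.81, 9.291, 19.02, 10.76 and 10.69 TMM-normalized CPM in backfat and at 2.718, 5.697, 2.293, 4.992 and 4.503 in liver of boars 65, 67, 69, 71 and 72. Boar 69 gave both the highest backfat and the lowest liver value. The means were 12.3 ± 3.86 and 4.04 ± 1.47 (SD, n = 5 each) and the log2 fold change was 1.61 ± 0.30 (SE; edgeR adjusted p = 0.000566), below the fold threshold. Without backfat 69 it was 1.40 (adjusted p = 0.00153).

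The other inhibitors of the family did not reach the fold threshold either. CDKN1B, which encodes p27, had a log2 fold change of 1.15 (edgeR adjusted p = 0.00283) and CDKN1A, which encodes p21, one of 0.74 (adjusted p = 0.0514). The ratio of CDKN1C to CDKN1A per kilobase was 0.148 to 0.406 in backfat and 0.0469 to 0.255 in liver, so CDKN1C was the lower of the pair in every library. The ratios overlapped, with a log2 difference of 0.91 (exact two-sided permutation, p = 0.167, adjusted p = 0.167). Of 14 listed cyclins, kinases and partners of CDKN1C, 11 were tested and 0 were called in either direction by edgeR, DESeq2 or limma-voom. The edgeR background was 11.1% of all tested genes called higher in backfat and 11.2% in liver. At an unadjusted p below 0.05 in edgeR, 4 were higher in backfat and 3 in liver, and with library size alone 1 was called higher in backfat. Those with the smallest adjusted p, named after their values were seen, were CCND1 (cyclin D1; log2 fold change -1.44, adjusted p = 5.02e-05) and RB1 (the retinoblastoma protein; 1.06, adjusted p = 9.40e-05).

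MEST (ENSSSCG00000016554, chr18:18319126-18358655, minus strand) encodes a protein of the alpha/beta-hydrolase fold that is known to follow the growth of fat cells in mice. It was at 10.24, 10.63, 8.242, 7.876 and 10.70 TMM-normalized CPM in backfat and at 3.416, 2.592, 4.013, 3.697 and 2.821 in liver. All backfat libraries were above all liver libraries, and the spread was small in both tissues, with coefficients of variation of 14.3% and 17.9%. The means were 9.54 ± 1.37 and 3.31 ± 0.594 (SD, n = 5 each), a log2 fold change of 1.53 ± 0.21 (SE; edgeR adjusted p = 4.50e-05). MEST overlaps COPG2, a coat protein gene on the opposite strand at chr18:18209378-18331536, and reads were counted without strand, so the 2 genes cannot be fully told apart where they overlap. COPG2 was at 19.8 ± 7.29 and 9.36 ± 4.91 (log2 fold change 1.08, adjusted p = 0.0240).

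GRB10 (ENSSSCG00000015631, chr9:136580363-136742552, minus strand) encodes an adaptor that binds the insulin and IGF1 receptors and dampens their signal. Its levels were 109.0, 95.26, 32.78, 92.96 and 66.37 TMM-normalized CPM in backfat and 36.86, 60.27, 36.40, 43.82 and 35.05 in liver. Backfat 69 was the lowest backfat library and fell below its own liver, and liver 67 was the highest liver library, so the ranges overlapped. The means were 79.3 ± 30.2 and 42.5 ± 10.5 (SD, n = 5 each), and the log2 fold change was 0.90 ± 0.29 (SE; edgeR adjusted p = 0.0185), with backfat higher in 4 of 5 boars. Without backfat 69 and liver 67 it was 1.26 (adjusted p = 0.000134), and without liver 72 it was 0.81 (adjusted p = 0.0570). In backfat 69 the sum of the hepatocyte markers was higher than in the other backfat libraries, and its part in the GRB10 value was not tested.

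GRB14 and GRB7, adaptors of the same family, were both called higher in liver. GRB14 was at 6.58 ± 1.05 TMM-normalized CPM in backfat and 44.3 ± 13.8 in liver (log2 fold change -2.75, edgeR adjusted p = 7.03e-07), and its log2 fold change was -1.99 with library size alone. GRB7 was at 0.0625 ± 0.0297 and 14.7 ± 3.49 (log2 fold change -7.81, adjusted p = 9.44e-09), from 21 counts in all of backfat. The ratio of GRB10 to GRB14 per kilobase was 3.29 to 8.77 in backfat (median 6.84) and 0.353 to 0.719 in liver (median 0.540). GRB10 was thus the higher of the pair in all 5 backfat libraries and the lower in all 5 liver libraries. The log2 difference was 3.53 (exact two-sided permutation, p = 0.00794, adjusted p = 0.0159), and the sign-flip permutation by boar gave p = 0.0625, again the smallest possible. This ratio was chosen after the counts were seen, and GRB14 alone was called higher in liver. Its p values are therefore not evidence beyond the difference in GRB14.

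Of 15 listed genes of insulin receptor signalling, 13 were tested and 0 were called in either direction by edgeR, DESeq2 or limma-voom. The edgeR background was 11.1% of all tested genes called higher in backfat and 11.2% in liver. By the adjusted p alone, 6 were higher in backfat and 4 in liver (background 28.0% and 27.0%), and as many at an unadjusted p below 0.05. With library size alone 3 were called higher in backfat. The receptors, named after their values were seen, lay on opposite sides. INSR, the insulin receptor, was at 12 ± 1.87 TMM-normalized CPM in backfat and 34.0 ± 26.3 in liver (log2 fold change -1.50, edgeR adjusted p = 0.00561). IGF1R, the IGF1 receptor, was at 12.7 ± 4.29 and 3.79 ± 1.07 (log2 fold change 1.74, adjusted p = 0.000257). NEDD4, a ubiquitin ligase known to act together with GRB10, had a log2 fold change of 1.71 (adjusted p = 3.38e-05).

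PEG3 (ENSSSCG00000003326, chr6:61281931-61307788, minus strand) encodes a large zinc finger protein of growth and maternal behaviour. It was at 8.752, 5.950, 4.357, 10.42 and 12.20 TMM-normalized CPM in backfat and at 10.65, 2.484, 8.133, 7.899 and 11.85 in liver. The tissues overlapped over nearly their whole ranges, liver 67 was the lowest of all libraries, and backfat was higher in 3 of 5 boars. The means were 8.34 ± 3.20 and 8.20 ± 3.61 (SD, n = 5 each), and the log2 fold change was 0.02 ± 0.39 (SE; edgeR adjusted p = 0.965). Its sign changed with the setting, from -0.24 without liver 67 to 0.70 with library size alone, and no alternative passed the test.

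DLK1 (ENSSSCG00000035805, chr7:121565844-121577493, plus strand) encodes preadipocyte factor 1, a membrane protein related to the Notch ligands that holds back the formation of fat cells. It was at 2.865, 1.129, 0.3196, 3.352 and 1.338 TMM-normalized CPM in backfat and at 2.294, 4.995, 0.8706, 4.676 and 5.208 in liver. It varied more than any other gene of the set in backfat, with a coefficient of variation of 70.2%, and boar 69 gave the lowest value in each tissue. Backfat was higher in 1 of 5 boars. The means were 1.80 ± 1.27 and 3.61 ± 1.93 (SD, n = 5 each), and the log2 fold change was -0.998 ± 0.598 (SE; edgeR adjusted p = 0.176). With boar as a block, which compares the tissues within each animal, it was -1.14 ± 0.42 (adjusted p = 0.0481), so it then passed the adjusted p but not the fold threshold. Without backfat 69 and liver 67 it was -0.58 (adjusted p = 0.391).

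All 16 listed genes of the DLK1 and Notch pathway were tested. Of these, 4 were called higher in backfat and 2 in liver (background 11.1% and 11.2% of all tested genes). The median log2 fold change of the 16 was 1.02, against 0.0001 for all tested genes. By the adjusted p alone, 9 were higher in backfat and 2 in liver (background 28.0% and 27.0%). Higher in backfat were HEY1, a target of Notch signalling (log2 fold change 2.87), the receptor NOTCH3 (2.50) and the ligands DLL4 (2.48) and JAG1 (2.34), with edgeR adjusted p between 1.88e-07 and 0.000109. The targets HES1 (0.71, adjusted p = 0.0613) and HEYL (-0.215, adjusted p = 0.602) did not pass the test. The receptors NOTCH1 (0.097, adjusted p = 0.732) and NOTCH2 (0.555, adjusted p = 0.114) did not pass either. DLL4 and NOTCH3 are also known from blood vessels and their pericytes. The endothelial markers summed to 950.5 to 1758 CPM in backfat and 122.5 to 207.9 in liver, and the smooth muscle and pericyte markers to 664 to 1075 and 129 to 281, and their part in these differences was not tested. Higher in liver were SOX9, a transcription factor known to lie downstream of DLK1 in preadipocytes and to mark bile duct cells (log2 fold change -3.23, adjusted p = 0.00111), and FN1, fibronectin, which binds DLK1 and is secreted by hepatocytes (-2.45, adjusted p = 0.000453). With library size alone FN1 fell short of the fold threshold at -1.78.

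DIRAS3 (ENSSSCG00000003797, chr6:144576342-144578820, plus strand) encodes a small GTPase related to RAS that slows growth. Its levels were 0.5978, 1.144, 0.9756, 1.063 and 0.6347 TMM-normalized CPM in backfat and 1.097, 4.698, 1.401, 2.054 and 1.980 in liver. Liver 67 was more than double the next liver library, and liver was higher than backfat in all 5 boars, although liver 65 lay below 1 backfat library. The means were 0.883 ± 0.251 and 2.25 ± 1.43 (SD, n = 5 each), and the log2 fold change was -1.34 ± 0.42 (SE; edgeR adjusted p = 0.0160). Without liver 67 it was -0.92 (adjusted p = 0.0309), and with library size alone -0.58 (adjusted p = 0.216). The part of the red cell, muscle and mitochondrial signal of liver 67 in its DIRAS3 value was not tested. The relatives DIRAS1 and DIRAS2 did not pass the test, with adjusted p of 0.583 and 0.650.

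**Figure D3:**
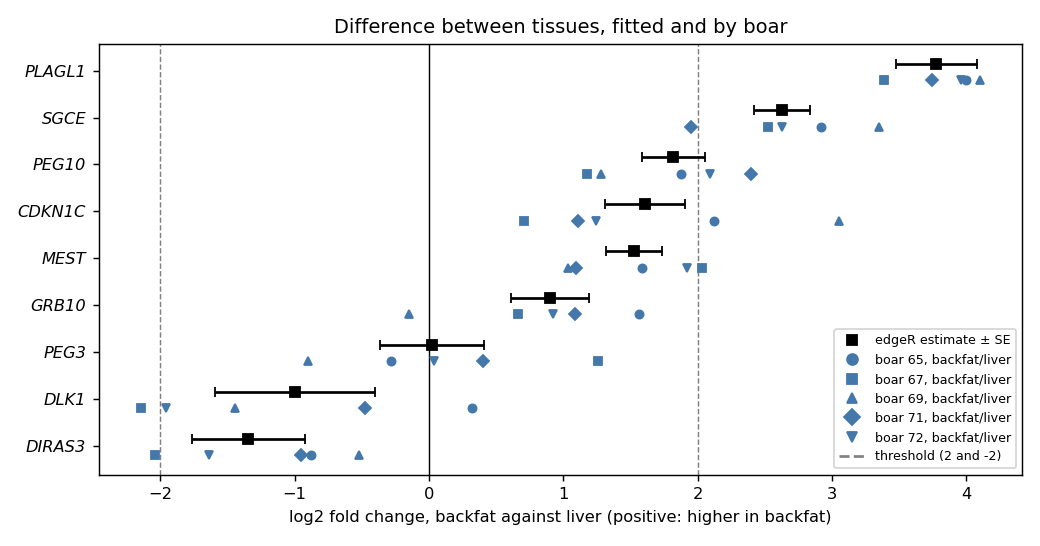
Difference between backfat and liver for each imprinted gene, as a log2 fold change (positive is higher in backfat). Black squares are edgeR estimates with their SE, blue symbols are the ratio of backfat to liver of single boars, and dashed lines mark the fold threshold at 2 and -2. All 5 boars are on the backfat side for PLAGL1, SGCE, PEG10, CDKN1C and MEST, and all 5 on the liver side for DIRAS3.

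Levels were compared between the genes only per kilobase of exon, in TMM-normalized CPM per kilobase. In backfat the order of the means was GRB10 (15.2 ± 5.78), SGCE (10.6 ± 0.795), CDKN1C (7.93 ± 2.48), PLAGL1 (5.83 ± 1.27), PEG10 (4.33 ± 1.43), PEG3 (1.96 ± 0.752), MEST (1.43 ± 0.205), DLK1 (0.408 ± 0.287) and DIRAS3 (0.185 ± 0.0526; SD, n = 5). The ranges of each gene and the next overlapped, except that MEST and DLK1 were separate. In liver the order was GRB10 (8.13 ± 2.01), CDKN1C (2.60 ± 0.948), PEG3 (1.93 ± 0.848), SGCE (1.72 ± 0.536), PEG10 (1.23 ± 0.166), DLK1 (0.818 ± 0.437), MEST (0.496 ± 0.0889), DIRAS3 (0.470 ± 0.299) and PLAGL1 (0.426 ± 0.181). In liver, GRB10 was separate from the next gene and every other gene overlapped its neighbour. GRB10 led in both tissues, and PLAGL1 was the fourth of the 9 genes in backfat and the last in liver. Per kilobase, the level of GRB10 was above 86.1% of all tested genes in backfat and 73.2% in liver, and that of DIRAS3 above 13.9% and 22.9%. The exon length used for DIRAS3 was 4778 bases, while its RefSeq gene spans 2479 bases. The level and place of DIRAS3 per kilobase therefore depend on the exon model.

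The spread between animals was above the median of all tested genes for 6 of the 9 genes in backfat and 5 of the 9 in liver. Backfat 69 was the lowest backfat library for 4 genes (PEG3, DLK1, PLAGL1 and GRB10) and the highest for 2 (SGCE and CDKN1C), where it was lowest for 20.2% and highest for 29.5% of all tested genes. Liver 67 was the highest liver library for 4 genes (PLAGL1, DIRAS3, GRB10 and CDKN1C) and the lowest for 2 (PEG3 and MEST), against 32.6% and 28.5% of all tested genes. With both libraries left out, PLAGL1 and SGCE were still the called genes.

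The other genes of the sarcoglycan and dystrophin complexes were listed for comparison with SGCE. Of 15 listed genes 8 were tested, and 4 were called higher in backfat and 0 in liver (background 11.1% and 11.2% of all tested genes). At an unadjusted p below 0.05, 0 were higher in liver. DESeq2 and limma-voom also called 4 and 0. SGCA, alpha-sarcoglycan and the closest relative of SGCE, was at 36.4 ± 6.94 TMM-normalized CPM in backfat and 0.330 ± 0.446 in liver, on 61 counts in the 5 liver libraries (log2 fold change 6.80, edgeR adjusted p = 4.75e-06). SSPN, sarcospan, had a log2 fold change of 3.82 (adjusted p = 2.49e-07), UTRN, utrophin, 2.15 (adjusted p = 1.32e-06) and DTNA, alpha-dystrobrevin, 2.02 (adjusted p = 0.0296). DTNA dropped below the thresholds in 7 of 18 alternatives. SGCA is known from skeletal muscle, whose markers summed to 14.3 to 619 CPM in backfat and 0.471 to 131.6 in liver, and their part in the SGCA value was not tested. SGCZ, zeta-sarcoglycan, had 1 count in backfat and 0 in liver and was not tested. DMD, dystrophin itself, named after its values were seen, had an adjusted p of 0.482.

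Each imprinted gene was set beside its neighbours, since imprinted genes often lie in clusters. Of 70 genes annotated within 250 kb of one of the genes, 28 had an identifier and 22 were tested. Among the tested neighbours, 2 were called higher in backfat and 5 in liver (background 11.1% and 11.2% of all tested genes). At GRB10, the neighbour DDC, aromatic amino acid decarboxylase, lay 9143 bases away and went the other way, at 0.222 ± 0.118 TMM-normalized CPM in backfat and 90.1 ± 17.6 in liver (log2 fold change -8.64, edgeR adjusted p = 5.52e-09). At CDKN1C, SLC22A18, a membrane transporter 10278 bases away, was at 0.813 ± 0.307 and 149.7 ± 14.97 (-7.52, adjusted p = 4.08e-09). KCNQ1, a potassium channel 30281 bases from CDKN1C, was also called higher in liver (-2.04, adjusted p = 4.38e-05), with its log2 fold change between -2.25 and -1.34 over 19 alternatives, 7 of which lost the call.

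At PLAGL1, the neighbour ZC2HC1B, 1945 bases away on the opposite strand, was called higher in backfat (log2 fold change 3.72, edgeR adjusted p = 0.000953), on 144 counts in backfat and 6 in liver. Near SGCE, COL1A2, a chain of type I collagen 192307 bases away, was at 12140 ± 3013 TMM-normalized CPM in backfat and 210.0 ± 70.0 in liver (log2 fold change 5.85, adjusted p = 8.71e-07). CASD1 between them had a log2 fold change of 1.19 (adjusted p = 0.000116). PPP1R9A, on the far side of PEG10, went the other way (log2 fold change -1.83, adjusted p = 0.000733). Neither CASD1 nor PPP1R9A reached the fold threshold. CPA1, a carboxypeptidase near MEST, and BEGAIN, near DLK1, were called higher in liver (-3.04 and -2.21, adjusted p = 0.000505 and 0.00288), and BEGAIN was at -1.50 with library size alone. RTL1, a protein-coding gene of the DLK1 cluster, was below the filter with 44 counts in backfat and 2 in liver. No neighbour of PEG3 could be matched to an identifier by name, so none is given.

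**Figure D4:**
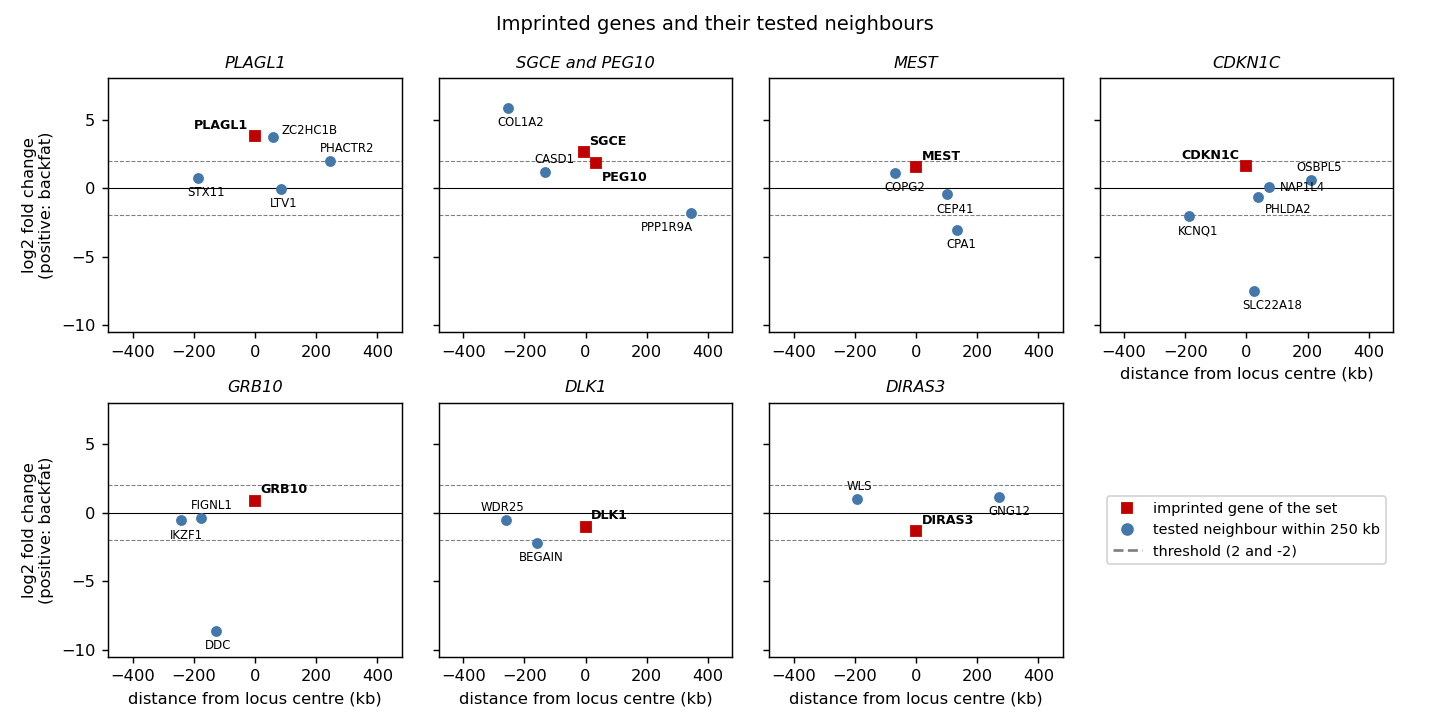
Log2 fold change between backfat and liver (positive is higher in backfat) of the imprinted genes (red squares) and their tested neighbours within 250 kb (blue circles), against the distance in kb from the centre of each locus. PEG3, which had no tested neighbour, is not drawn. Dashed lines mark the fold threshold at 2 and -2. DDC beside GRB10 and SLC22A18 beside CDKN1C lie far to the liver side of the imprinted gene, and ZC2HC1B lies beside PLAGL1 on the backfat side.

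A further 45 genes known as imprinted in at least 1 mammal were listed, of which 30 had an identifier and 23 were tested. Of these, 3 were called higher in backfat and 4 in liver (background 11.1% and 11.2% of all tested genes), and the median log2 fold change was 0.02. Higher in backfat were ZDBF2, a zinc finger gene (1.77 ± 0.675 against 0.215 ± 0.0672 TMM-normalized CPM, log2 fold change 3.03), INPP5F, a phosphoinositide phosphatase (2.24), and NDN, necdin, a growth suppressor (32.0 ± 4.54 against 7.60 ± 1.56, 2.08), with edgeR adjusted p between 1.15e-06 and 3.80e-05. NDN lost the call without liver 69, where its log2 fold change was 1.99. Higher in liver, besides DDC, SLC22A18 and KCNQ1, was AMPD3, an AMP deaminase (-3.68, adjusted p = 5.23e-07). The list shares 6 tested genes with the neighbours described above. IGF2R, the receptor that clears IGF2, was at 92.3 ± 18.3 and 91.3 ± 24.7 (log2 fold change 0.02, adjusted p = 0.958), and was named after its values were seen. CALCR, the calcitonin receptor, had 8 counts in backfat and 0 in liver and was not tested.

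Among the closest relatives of the 9 genes by protein family, 11 of 17 were tested. Called higher in backfat was 1 (SGCA; background 11.1% of all tested genes), and 3 were called higher in liver (GRB7, GRB14 and EPHX1; background 11.2%). EPHX1, an epoxide hydrolase of the same fold as MEST, was at 32.0 ± 9.49 and 559.6 ± 445 TMM-normalized CPM (log2 fold change -4.13, edgeR adjusted p = 8.23e-05), opposite to MEST. Its liver libraries ranged from 107.7 to 1051. ABHD11, also listed as a relative of MEST, did not pass the test (log2 fold change -0.088, adjusted p = 0.764). DLK2, the relative of DLK1, was below the filter with 36 counts in backfat and 20 in liver.

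For each gene, the named gene with the most similar profile was found among 12739 others, by the root mean square difference of log2 levels centred on each gene's mean over the 10 libraries. The closest match was between SGCE and FSTL1, a secreted protein of stromal cells (0.109), followed by CDKN1C and RAB3IL1 (0.143), MEST and SPTBN1 (0.165), PEG10 and TALDO1 (0.184), and PLAGL1 and ROBO4, a receptor of endothelial cells (0.213). More distant were PEG3 and LSS (0.239), DIRAS3 and FBXW7 (0.285), GRB10 and DOCK6 (0.291), and DLK1 and KIFC1 (0.617). DLK1 had the most distant match of the 9 genes. Each distance is a description over 10 libraries that differ first by tissue.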

How the data were processed

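Total RNA and genomic DNA of backfat and liver were sequenced. For RNA-seq, the authors mapped paired reads to Sscrofa11.1 with HISAT2 and counted them per gene, without strand, with featureCounts 2.0.1 and Ensembl release 99. The deposited values used here are raw counts, with the summed exon length of each gene. The bisulfite counts that the authors deposited give calls by read position only and were not used.

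The tissues were compared by the quasi-likelihood test of edgeR 4.0.16 in R 4.3.3, after filterByExpr and TMM and with no covariate. Benjamini-Hochberg adjustment ran over 16275 genes, and each SE is the log2 fold change divided by the root of F. Alternatives were DESeq2 1.42.0, limma-voom 3.58.1, other scalings and filters, removal of the 13 mitochondrial genes, boar as a block and leaving out each library. The pairing comes from boar numbers in the column names, since the same animals gave both tissues. Deviations from the tissue means correlated at 0.049 to 0.238 within boars, and 4 of 5 backfat libraries correlated best with the liver of their own boar. The replicate numbers of the labels could not be matched to boars. Replicates are separate boars. Python 3.11.15, scipy 1.17.1 and matplotlib 3.10.9 served for exact permutation tests and plots.

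In simulated counts for backfat against liver with 200 of 16275 genes changed by a log2 fold change of 3, edgeR recovered 197, DESeq2 198, limma-voom 191 and the block 189, with 0, 3, 2 and 2 false calls. The changes were split evenly between the tissues, the other genes were given no difference, and no effect of boar was added. The simulation therefore does not cover smaller changes, a contrast in which many genes differ, or differences between boars.

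The imprinted genes and all lists were chosen with earlier results of these data known. Named are the imprinted genes, up to 4 called genes in each direction of each list with the largest change, genes at 0 in 1 tissue, and the nearest profile of each gene. Other genes named beside a result, and the fifth neighbour called higher in liver, were chosen after their values were seen. Marker lists numbered 12. Those for peripheral nerve, macrophage, lymphocyte, cholangiocyte and hepatic stellate cells summed to 25.1 to 90.2, 373.5 to 769, 12.1 to 32.3, 0.712 to 3.15 and 39.4 to 123 CPM in backfat, and to 25.5 to 82.2, 538.5 to 815, 7.42 to 19.0, 22.9 to 52.4 and 134.8 to 163.6 CPM in liver. Coordinates and sequences are RefSeq's for Sscrofa11.1. Exon models may differ from those used for counting. The upstream window of 1 gene is not reported here.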

Additional observations from a re-analysis of the deposited data

Results flagged for a closer look

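In 2 of 18 groups of 5 libraries (9 genes in 2 tissues), 1 library lay far from the other 4, with a gap to the nearest library, as a share of the whole range, above Dixon's critical value. Chance alone gives about 1 such group in 20. DIRAS3 was at 4.698 TMM-normalized CPM in liver 67, with the nearest liver library at 2.054 (gap 0.734 of the range). CDKN1C was at 19.02 in backfat 69, with the nearest backfat library at 11.81 (gap 0.741 of the range).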

How the results depend on the processing

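PLAGL1 and SGCE passed both thresholds under all 19 alternatives, and the 2 genes called higher in backfat and 0 in liver ranged over 2 to 2 and 0 to 0 when single libraries were left out. With library size alone, 5 of the 9 genes were called higher in backfat, with PEG10 at 2.51, MEST at 2.24 and CDKN1C at 2.37. Relative to the median of all genes these were 1.80, 1.53 and 1.66. The same scaling called 2874 of all genes higher in backfat and 1340 in liver, against 1814 and 1819, and left 0 of the 9 genes higher in liver by the adjusted p alone. DESeq2 and the fit with no filter each called 5 other imprinted genes higher in backfat, of 26 and 29 tested, and no filter called 2729 of all genes higher in liver. Requiring 10 counts in every library left 871 and 981 calls among 13026 genes. With boar as a replicate block, 2 of the 9 genes were higher in liver by the adjusted p alone, DLK1 being added, and no other call among the 9 genes changed. PEG3 changed sign with DESeq2's size factors in edgeR (-0.006), with mitochondrial genes removed (-0.012), and without backfat 69 and liver 67 (-0.048), and it ranged from -0.24 to 0.19 without single libraries, being below 0 without backfat 71 or 72 or liver 67 or 71.

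Without single libraries, 1817 to 2127 of all genes were called higher in backfat and 1837 to 1942 in liver, other imprinted genes numbered 3 to 3 and 3 to 5, and the 9 genes by the adjusted p alone 5 to 6 and 1 to 1. Leaving out backfat 69 and liver 67 together, an alternative chosen after seeing the data like the counts by the adjusted p alone and those for the ratios, gave log2 differences of 2.86 and 3.86 for the ratios of PLAGL1 and GRB10 to their relatives. Each had p = 0.0286, the smallest that an exact permutation of 4 against 4 libraries allows, so the adjusted p = 0.0571 says nothing of their stability. Beyond the numbers of genes and libraries that each setting fixes, the cause of these changes was not tested. DIRAS3 had 37 to 174 counts per library and DLK1 19 to 254.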
